A study of Mus musculus with 36 samples.

Results

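Plasma cells are the antibody-secreting end of the B lineage, and 10 of their transcripts were followed here through 2 sorted progenitor stages of mouse bone marrow and through cultured B cell progenitors. The members were Jchain, Igha, Ighg1, Ighg2b, Ighg2c, Xbp1, Prdm1, Sdc1, Mzb1 and Tnfrsf17, taken by symbol from the 46078 genes of the sorted-cell table. They were chosen on how their levels stood in pro-B and pre-B cells of the same animal, so the values between those stages are a description and carry no test.

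The study asked how the deacetylase SIRT7 acts on the transcription factor Pax5 in early B cells. Sorted cells came from the bone marrow of adult 129Sv mice, either wild-type (mice 10 and 18) or Sirt7-/- (mice 11 and 8), the latter with a germline deletion, and each mouse gave 1 pro-B library (CD43+) and 1 pre-B library (CD43-), both sorted from IgM- B lineage cells with B220 among the markers. A second table held Pax5-/- B cell progenitors grown on OP9 feeder cells with IL-7, SCF and FLT3-L after retroviral transduction with an empty vector (EV), Pax5WT, Pax5K198Q (which mimics an acetylated lysine) or Pax5K198R (which mimics a deacetylated one), and the remaining table held cultured wild-type cells with EV and Sirt7-/- cells with EV, Pax5WT or Pax5K198R. Each group had 2 libraries, so p-values rest on a spread pooled over the 4 groups of a table, and an exact permutation test of 2 libraries against 2 cannot give a two-sided p below 0.33. The study's methods take a replicate in mouse experiments to be 1 animal and place RNA-seq replicates on separate days, while the labels of the cultured libraries give no animal number. Vector expression is not the endogenous gene, and the Pax5-/- cells are fetal liver cells by the study's methods but bone marrow cells by their labels. Those methods place the Pax5-/- mice on another strain background than 129Sv. For Sirt7-/- mice they name 129Sv as the strain of most experiments, without singling out the cultured cells.

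Plasma cells join antibody monomers through the J chain, carry heavy chains switched from IgM to IgG or IgA, and depend on the transcription factors Blimp-1 (Prdm1) and XBP1 for secretion. Pax5, which maintains B cell identity, is known to repress Jchain, Prdm1 and Xbp1 and is lost as plasma cells form. Pro-B cells rearrange the heavy chain and pre-B cells the light chain, and neither stage is known for switched antibody. Unswitched cells can also transcribe a heavy-chain constant gene from its own germline promoter, which a count per gene cannot tell from a switched transcript.

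The cell type label of 4 of the 8 sorted libraries goes against the title, which was followed here. The stage markers sided with the titles: Dntt, the terminal transferase of pro-B cells, lay between 19432 and 30750 normalized counts in the 4 pro-B libraries and between 131 and 3838 in the 4 pre-B libraries. Il2ra, a pre-B surface receptor, ran the other way, between 1593 and 3760 in pro-B and between 16329 and 26038 in pre-B. Spn, which encodes CD43, was at 16909 to 21895 in pro-B and at 5442 to 7600 in pre-B. Sirt7 was at 2692 and 2533 in wild-type pro-B against 363 and 366 in Sirt7-/- pro-B, and at 5613 and 5219 against 1066 and 821 in pre-B, so the genotype labels matched the gene.

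The pre-B library of Sirt7-/- mouse 8 stood apart. Its Dntt count was 3838 where the other 3 pre-B libraries had 131, 157 and 423, and its natural killer cell markers summed to 1047 normalized counts where the others summed to 159.9, 197.9 and 365. Both libraries of this mouse were also high in erythroid markers, at 48399 in pro-B and 72991 in pre-B, where the other 6 lay between 5889 and 16539. The sorted libraries were of similar depth, at 50004827 to 55536608 reads each, recovered from the deposited values.

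In pro-B libraries the secreted-antibody transcripts made up most of the members' counts. Jchain (GRCm38 chromosome 5, 88519809 to 88527891, minus strand), which links IgA and IgM units, was at 20006, 57036, 37239 and 35602 normalized counts in the pro-B libraries of mice 10, 18, 11 and 8, and at 881, 1307, 2191 and 2114 in their pre-B libraries. Every pro-B library was above every pre-B library, and within a mouse the pre-B level was 2.29% to 5.94% of the pro-B level. In bulk samples fewer cells of a type and less RNA per cell cannot be told apart.

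Igha (chromosome 12, 113254830 to 113260236, minus strand), the IgA heavy-chain constant gene, reached 105266, 280258, 130194 and 104981 normalized counts in pro-B and 4891, 15358, 10582 and 10264 in pre-B. It was the most abundant member in the pro-B library of 3 of the 4 mice, and its pre-B level was 4.65% to 9.78% of pro-B. In pro-B of mouse 8 the IgG1 gene Ighg1 (chromosome 12, 113325240 to 113330523) passed it narrowly, at 105183 against 104981.

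The IgG genes lie in the same cluster on chromosome 12 as Igha and followed the same pattern. Ighg1 was at 15196, 49886, 44490.5 and 105183 normalized counts in pro-B against 398, 747, 1345 and 3656 in pre-B. Ighg2b (113302965 to 113307933) was at 15877, 44619, 50780.4 and 62227 in pro-B against 819, 1803, 2738 and 3948 in pre-B. Ighg2c (113285325 to 113288932) was at 9745, 32473, 53850.1 and 35806 in pro-B against 109, 479, 1371 and 1402 in pre-B. For none of the 3 did a pre-B library reach a pro-B library, and the pre-B level within a mouse was 1.497% to 3.48%, 4.04% to 6.34% and 1.12% to 3.92% of pro-B in that order. These genes resemble each other: 246 of the 2647 different 31-base words of Ighg2b and 194 of the 1295 of Ighg2c also occur in another heavy-chain constant gene, against 1.72% of those of Ighg1 and 0 of Igha, so the split between Ighg2b and Ighg2c is less certain than the rest. The sorted mice were 129Sv while the reads were mapped to a C57BL/6 reference. By the study's methods the Pax5-/- mice were C57BL/6, so the sorted and the Pax5-/- cells also differ in strain. The effect of strain on these genes was not tested.

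Jchain, Igha, Ighg1, Ighg2b and Ighg2c together took 0.328%, 0.897%, 0.622% and 0.671% of all counts in pro-B libraries of mice 10, 18, 11 and 8. In the pre-B libraries they took 0.0132%, 0.0360%, 0.0334% and 0.0390%. They held 92.8% to 96.7% of the counts of the 10 members in pro-B and 33.1% to 64.7% in pre-B. All 399 immunoglobulin rows together, by contrast, took 1.63% to 3.11% of a pro-B library and 2.23% to 2.62% of a pre-B library, so the stages overlapped in total immunoglobulin.

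**Figure D1:**
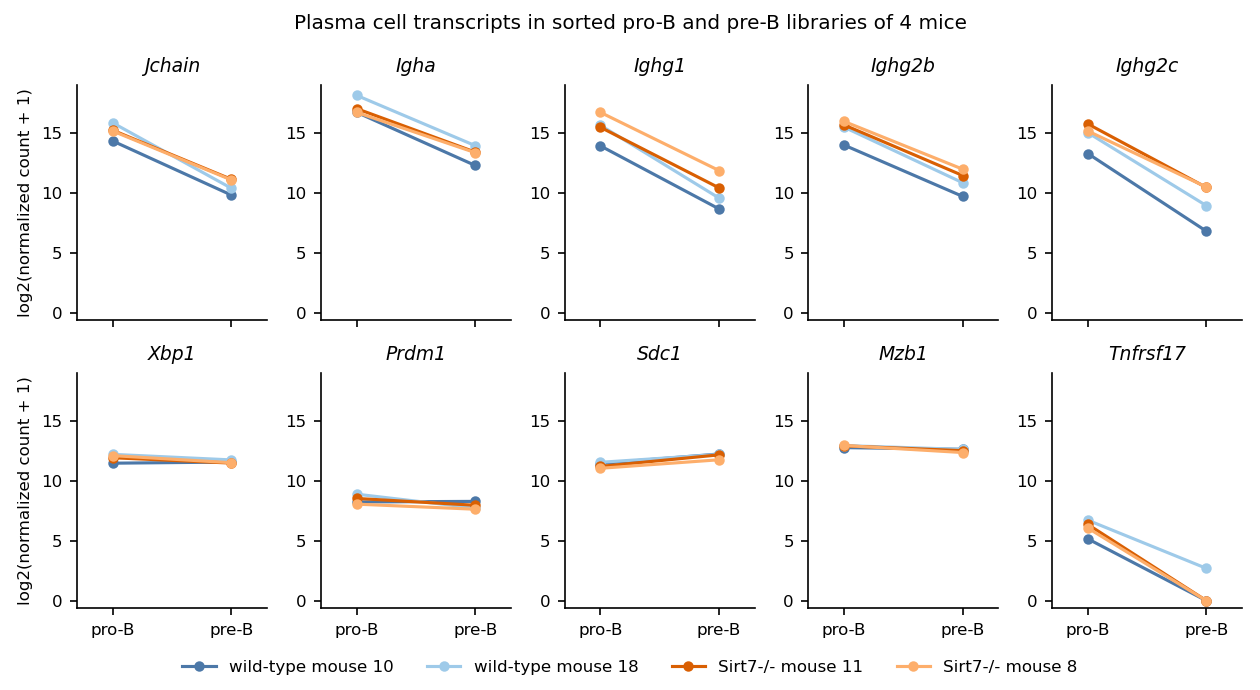
Level of each of the 10 members, as log2(normalized count + 1), in the pro-B and pre-B library of each mouse, with a line joining libraries of 1 mouse. Jchain, Igha, Ighg1, Ighg2b, Ighg2c and Tnfrsf17 drop steeply in all 4 mice, Xbp1, Prdm1 and Mzb1 keep 44.8% or more of their pro-B level in every mouse, and Sdc1 is higher in pre-B in all 4.

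Tnfrsf17 (chromosome 16, 11313812 to 11320074, plus strand), which encodes the plasma cell survival receptor BCMA, was rare but split the stages as sharply. It had 37, 111, 88 and 71 reads in pro-B libraries of mice 10, 18, 11 and 8 and 0, 5, 0 and 0 in pre-B. With a floor of 3 reads per library, pro-B was at least 11.03-fold higher in mouse 10, at least 25.2-fold in mouse 11 and at least 20.7-fold in mouse 8. In mouse 18 it was 18.9-fold higher. The floor covers counting error only.

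The transcription factors did not share this drop. Xbp1 (chromosome 11, 5520659 to 5525893, plus strand), which drives the secretory programme, was at 2806, 4673, 3845 and 4341 normalized counts in pro-B and 3001, 3391, 2820.0 and 2885 in pre-B. Its pre-B level was 66.5% to 107% of pro-B and was the higher of the pair in mouse 10. Prdm1 (chromosome 10, 44437177 to 44528501, minus strand), which encodes the plasma cell regulator Blimp-1, was at 298, 468, 366 and 263 in pro-B and 308, 210, 246 and 196 in pre-B, or 44.8% to 103% of pro-B. Over the 8 libraries the levels of both genes overlapped between the stages.

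Mzb1, an endoplasmic reticulum protein that helps antibody assembly and is also made by immature B cells, was at 6897, 7753, 7610 and 7803 in pro-B and 6256, 6231, 5786 and 5190.0 in pre-B. The stages did not overlap, but the pre-B level was still 66.5% to 90.7% of pro-B. Sdc1 (chromosome 12, 8771323 to 8793715, plus strand) encodes CD138, used to sort plasma cells and carried by B cell progenitors too. It was at 2756, 2954, 2328 and 2091 in pro-B and 4770 (4769.8), 4647, 4538 and 3416 in pre-B, which made it the only member higher in pre-B in 4 of 4 mice, at 157% to 195% of pro-B. Across all genes tested, limma called 40.2% between the stages in wild-type and 35.7% in Sirt7-/- mice.

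Per kilobase of exon, the order of the members changed with the stage. In pro-B, Igha stood highest in mice 10, 18 and 11, at 39455, 105044 and 48799 normalized counts per kilobase, and Ighg1 in mouse 8, at 40579.8 beside 39348 for Igha. In pre-B, Mzb1 stood highest in mice 10, 11 and 8, at 5149, 4762 and 4272 normalized counts per kilobase, and Igha in mouse 18, at 5756 beside 5128 for Mzb1. Prdm1 was at 35.1 to 83.9 normalized counts per kilobase over all 8 libraries. Neighbours such as Igha and Ighg1 in mouse 8 or Igha and Mzb1 in mouse 18 differed by less than the full range of either gene over all mice at that stage.

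Isotype make-up differed between the mice. Igha took 64.1% and 61.3% of the summed per-kilobase level of the switched heavy-chain genes in wild-type pro-B and 36.8% and 28.8% in Sirt7-/- pro-B. In pre-B it took 71.8% and 79.0% in wild-type against 55.4% and 44.9% in Sirt7-/-. The genotypes did not overlap at either stage, with 2 mice each, and within each mouse the Igha share of pre-B exceeded that of pro-B. Ighg2c took 11.9% and 14.3% in wild-type pro-B and 30.6% and 19.7% in Sirt7-/- pro-B, and Ighg1 took 29.7% in mouse 8 where the other 3 pro-B libraries had 9.52%, 11.2% and 13.0%. Shares of 1 total move against each other, and no test of them was made.

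**Figure D2:**
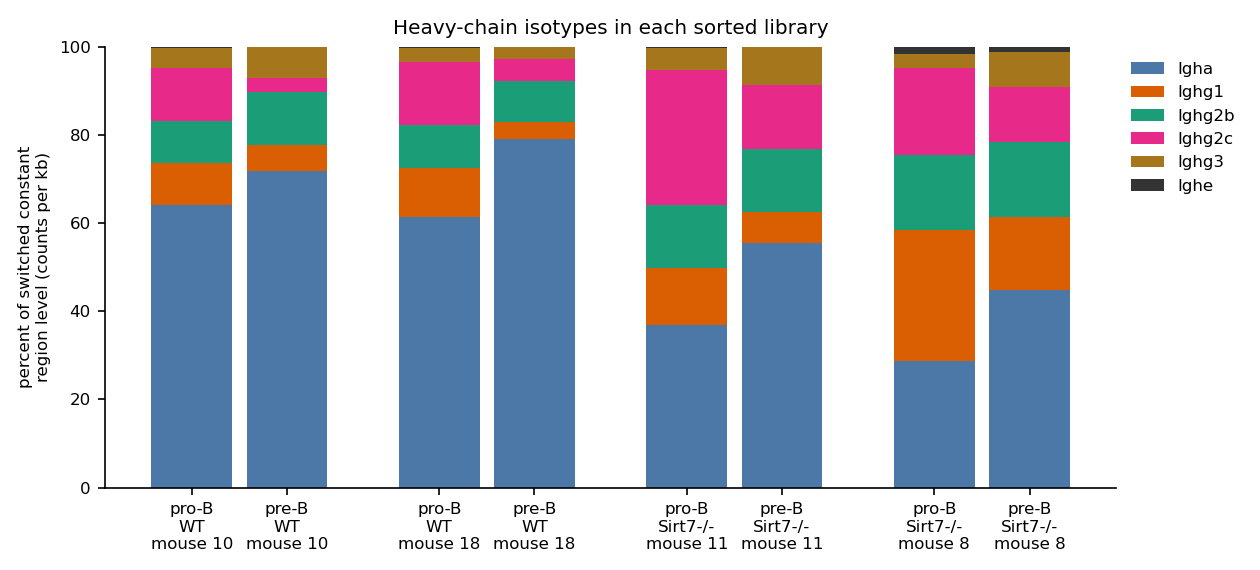
Share of each switched heavy-chain constant gene in their summed level per kilobase (percent, y axis) in each sorted library (x axis), stacked to 100. Igha is the largest block in 7 of the 8 libraries and is smaller in the 4 Sirt7-/- libraries than in the wild-type library of the same stage.

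Whether loss of SIRT7 changed these transcripts was tested within each stage, a contrast that did not choose the members. In pro-B cells limma called 0.0623% of 17649 genes for the loss of SIRT7, 2 of them up and 9 down. In pre-B cells it called 0.085%, with 11 up and 4 down. None of the 10 members was called at either stage. At an unadjusted p under 0.05, 1 member stood out in pro-B (Sdc1), beside 5.94% of all genes, and 3 in pre-B (Ighg1, Ighg2b and Ighg2c), beside 13.6%. DESeq2 and edgeR on the recovered reads called 0 members at both stages. Their lowest adjusted p-values for a member were 0.641 and 0.86 in pro-B and 0.125 and 0.285 in pre-B. Over all genes DESeq2 called 128 and edgeR 10 in pro-B, and 728 and 5 in pre-B.

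The IgG genes and Jchain had higher values in Sirt7-/- pre-B without passing the test. Both Sirt7-/- pre-B libraries exceeded both wild-type ones for Jchain, by 1.003 on the log2 scale (SE 0.44, 95% interval -0.04 to 2.05, limma adjusted p = 0.385), and for Ighg2c, by 2.596 (SE 0.76, interval 0.79 to 4.398, adjusted p = 0.229). Ighg1 differed by 2.02 (SE 0.73, limma adjusted p = 0.300) and Ighg2b by 1.44 (SE 0.53, adjusted p = 0.310). Igha differed by 0.27 (SE 0.59). Without the pre-B library of mouse 8 the log2 differences were 1.03 for Jchain, 1.301 for Ighg1, 1.17 for Ighg2b and 2.58 for Ighg2c, with adjusted p-values of 0.437 to 0.625. A p that misses the threshold does not show equal levels.

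In pro-B cells Jchain differed by 0.11 (SE 0.44, interval -0.94 to 1.15) and Igha by -0.55 (SE 0.59). Ighg1, Ighg2b and Ighg2c were higher in Sirt7-/- by 1.31, 1.08 and 1.304 on the log2 scale, with limma adjusted p-values of 0.888 to 0.923. Sdc1 had the lowest unadjusted p, at -0.37 (SE 0.15, limma adjusted p = 0.825). The stage-by-genotype interaction passed the test for 0.00567% of genes, which was 1 gene and not a member, and for 0 genes with the mouse as a block. At an unadjusted p under 0.05 it held 0 of the 10 members, beside 5.43% of all genes. DESeq2 and edgeR called 0 members as well, beside 104 and 1 of all genes.

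Other plasma cell genes, from a list of 15 outside the members, were divided between the stages. In wild-type mice 5 were higher in pre-B, 5 were lower and 5 did not pass the test, with a median log2 difference of -0.16 beside -0.04 over all genes. In Sirt7-/- mice the counts were again 5 and 5, with a median of -0.15. With the mouse as a block 12 of the 15 were called in wild-type and 11 in Sirt7-/- mice, beside 7614 and 6800 of all 17649 genes. The 3 with the largest differences were low-abundance genes that fell. Cd28, a costimulatory receptor of long-lived plasma cells and T cells, was at 108, 261, 261 and 210.3 normalized counts in pro-B of mice 10, 18, 11 and 8 and 0, 4.37, 0 and 31.6 in pre-B. Fkbp11, a secretory-pathway isomerase, was at 55.2, 101, 107 and 67.3 against 0, 2.19, 5.33 and 0. Ccr10, the chemokine receptor of IgA plasma cells, was at 85.1, 236, 135 and 95.9 against 2.09, 10.9, 8.53 and 7.38. All 3 passed the low-value filter through pro-B alone, so their values are a description, and they are 3 of the 5 that fell.

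Other genes of that list rose. Irf4, a transcription factor of plasma cells that pre-B cells also use, was at 22107, 23073, 17582 and 18056 in pro-B and 34036, 40383, 28185 and 28776 in pre-B, a log2 rise of 0.72 (SE 0.09) in wild-type and 0.68 (SE 0.09) in Sirt7-/-. Eaf2, an elongation factor partner, rose by 1.66 and 1.38, Sec11c, a signal peptidase subunit, by 1.47 and 1.43, and Trp53inp1 by 1.43 and 1.03. Leaving out 1 library moved the number of list genes called to as few as 6, without the pre-B library of mouse 10 in wild-type and without the pro-B library of either mouse in Sirt7-/-.

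**Figure D3:**
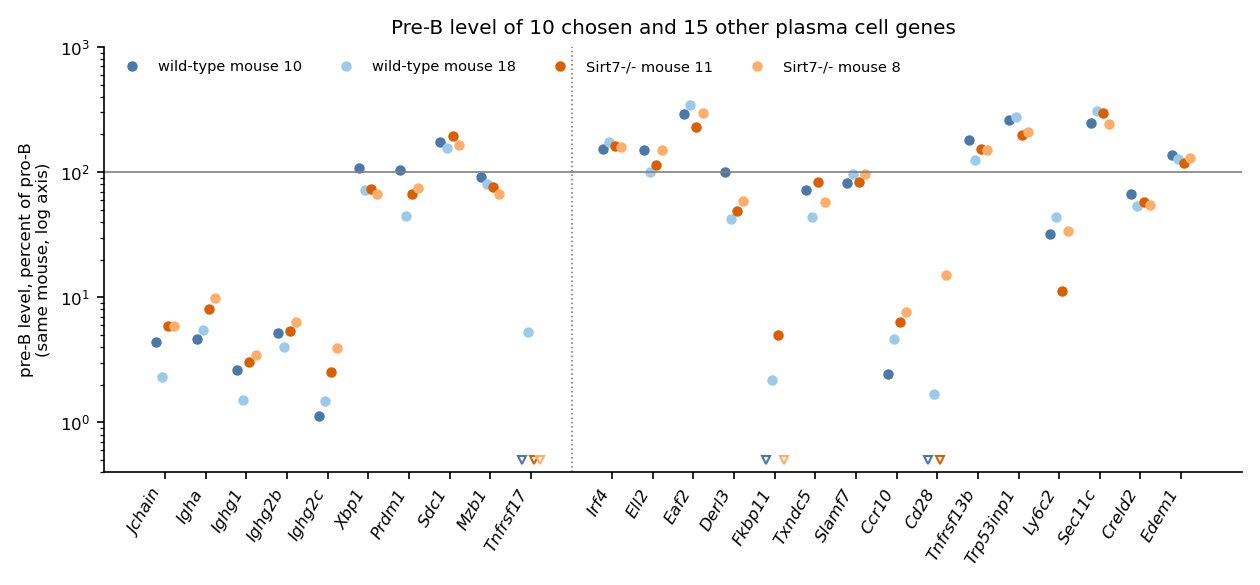
Pre-B level as a percent of the pro-B level of the same mouse (log axis) for the 10 members, left of the dotted line, and 15 other plasma cell genes, right of it, with 1 point per mouse. Pre-B libraries without a count are open triangles placed at the foot of the axis, the grey line marks equal levels, and Cd28, Fkbp11 and Ccr10 sit with the antibody transcripts while Irf4, Eaf2 and Sec11c lie above the line.

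Genes of the secretory pathway, which plasma cells expand, were called at a share near that of all genes. Of 14 genes, 4 rose and 3 fell from pro-B to pre-B in wild-type mice, beside 40.2% of all genes called, and 4 rose and 2 fell in Sirt7-/- mice, beside 35.7%. The chaperone partner Sdf2l1 fell by 1.80 (SE 0.28, limma adjusted p = 0.00253) and 1.28 on the log2 scale, and the disulfide isomerase Pdia6 by 0.91 and 1.03. Ern1, which encodes the stress sensor IRE1 that splices Xbp1 RNA, rose by 1.01 (SE 0.17, adjusted p = 0.00338) and 0.83.

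Among 8 other immunoglobulin constant genes, 5 rose and 2 fell in wild-type mice and 4 rose and 2 fell in Sirt7-/- mice. Those that fell were the remaining switched isotypes. Ighg3 was at 6987, 13439, 16754 and 11409 normalized counts in pro-B and 451, 516, 1527 and 1717 in pre-B (limma adjusted p = 0.000214 in wild-type and 0.000828 in Sirt7-/-). Ighe, the IgE gene, was at 285, 701, 475 and 3259 against 0, 0, 12.8 and 155. With the floor of 3 reads per library, Ighe in pro-B was at least 90.9-fold higher in mouse 10 and at least 214-fold higher in mouse 18, and mouse 8 held the most of it in both stages. The unswitched Ighm rose by 1.18 (SE 0.11) and 1.12 and the light-chain gene Iglc3 by 2.90 and 3.70, while the light-chain gene Igkc was lower in pre-B in 4 of 4 mice, at 43.7% to 91.7% of pro-B.

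B cell genes that plasma cells switch off rose: 10 of 12 rose and 1 fell in wild-type, and 10 rose and 0 fell in Sirt7-/-. Ms4a1, which encodes CD20, rose by 3.86 (SE 0.30, limma adjusted p = 0.000261) and 4.11, and Spib, a transcription factor of B cells, by 1.98 and 2.06. The sort and stage markers split 6 up and 6 down of 14 in both genotypes. By the mean over both genotypes Dntt, Kit and Vpreb1 fell most, while in wild-type mice alone Igll1 fell more than Kit. All 12 immature and mature B cell markers rose in wild-type and 11 of 12 in Sirt7-/- mice, and Fcer2a, which encodes CD23 of mature B cells, went from 179, 154, 329 and 193 to 9419, 6540.4, 22523 and 14430.1.

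Markers of other cell types moved with the same stages. The 11 T cell markers summed to 1931, 2511, 2406 and 2790 (2789.8) normalized counts in pro-B of mice 10, 18, 11 and 8 and to 143, 159, 175 and 1008 in pre-B, so every pre-B sum lay below every pro-B sum. Thy1, the most abundant of them in pro-B, was at 886, 1007, 1422 and 1357 in pro-B and 22.0, 14.2, 43.7 and 323 in pre-B. Cd3e was at 18.7, 44.8, 22.0 and 10.1 in pro-B and at 0 in all 4 pre-B libraries, as was Bcl11b. Such markers passed the low-value filter through pro-B alone, so the list is given by its values, as a description. Cd28 belongs to this lineage as well as to plasma cells. The part of T cells in the plasma cell result was not tested.

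The 10 myeloid markers summed to 38942, 27799, 30527 and 10084 in pro-B and 16354, 15663, 11933 and 10780.5 in pre-B, with S100a9 the most abundant in pro-B of mice 10, 18 and 11 and Itgam in the rest. In wild-type mice 1 of them rose and 3 fell, and in Sirt7-/- mice 1 rose and 4 fell, Lyz2 with log2 changes of -2.89 and -2.84. The part of myeloid cells in the plasma cell result was not tested. The 9 natural killer cell markers, led by Nkg7, summed to 692, 646, 722 and 1608 in pro-B. Of these, Eomes was at 85.1 and 73.7 in wild-type pro-B and at 0 in wild-type pre-B, a description, since among wild-type libraries it was detected in pro-B alone. Klrb1c, the most abundant of them in wild-type pre-B, went the other way there, from 166 and 102 in pro-B to 255 and 119. In both Sirt7-/- mice Klrb1c was lower in pre-B, from 218 and 216 to 68.2 and 203.

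Of 8 plasmacytoid dendritic cell markers, 1 rose and 1 fell in wild-type mice and 3 rose in Sirt7-/- mice. Their sum was higher in pre-B in every mouse, at 1301, 1258, 1371 and 2639 in pro-B and 3894, 2321, 4236 and 3831 in pre-B. Cox6a2 was the most abundant in pre-B of mice 10, 18 and 8 and Pacsin1 in mouse 11. Siglech, the defining marker, did not follow that sum, at 108, 97.0, 80.7 and 492 in pro-B and 0, 3.28, 0 and 497 in pre-B, so mouse 8 was high at both stages. Of 7 germinal centre markers 2 rose and 2 fell in wild-type and 3 rose and 1 fell in Sirt7-/- mice, with Bcl6 most abundant throughout. The 7 tested include Rgs13, at 0 to 6.53 in pro-B and 32.8 to 57.9 in pre-B. It passed the low-value filter through pre-B alone, so its values are a description. Of 7 erythroid markers, Klf1 alone passed the test in each genotype, with log2 changes of -1.996 and -1.001. Of 9 stroma markers 6 could be tested and limma called 0, with 0 in wild-type and 1 in Sirt7-/- mice at an unadjusted p under 0.05, and Lum was at 0 in all 8 libraries. What share of the antibody transcripts came with any of these cells was not tested.

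**Figure D4:**
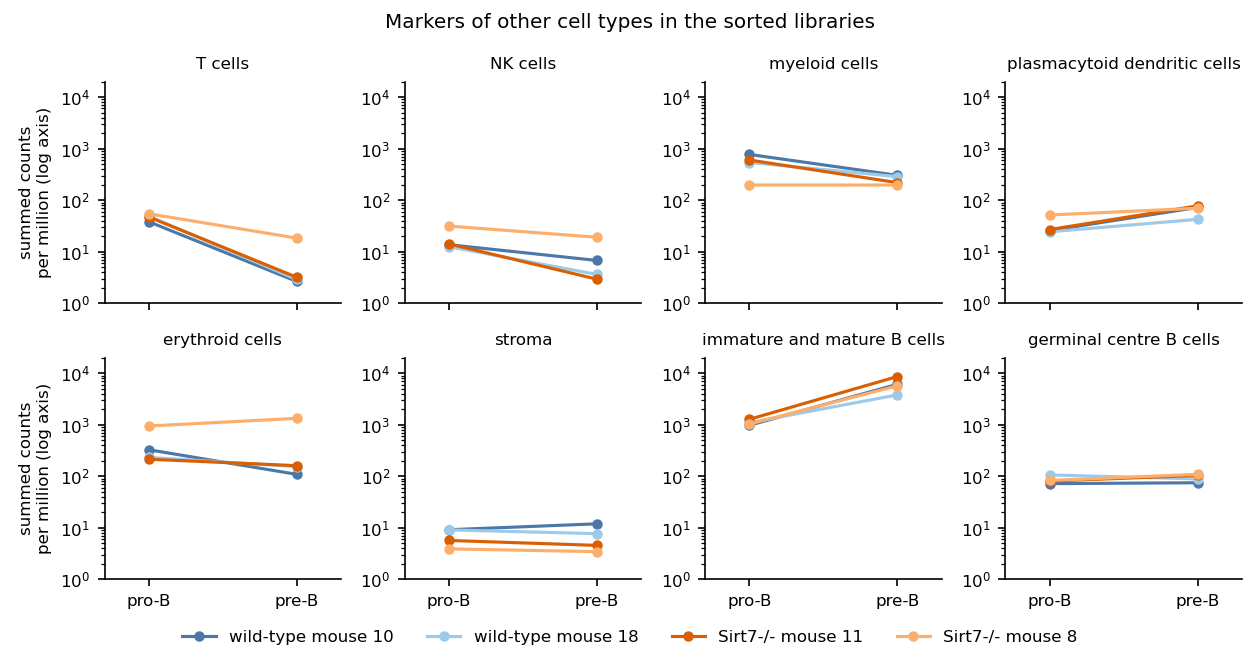
Summed counts of 8 marker lists relative to all counts of a library (log axis, same range in every panel) in the pro-B and pre-B library of each mouse, joined by mouse. T cell markers drop in all 4 mice and immature and mature B cell markers rise in all 4, while mouse 8 is highest in natural killer and erythroid markers at both stages.

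By pattern, the 10 genes most like the mean of Jchain, Igha, Ighg1, Ighg2b and Ighg2c over the 8 libraries were Psmc5, Bub3, Gmpr, St3gal2, Eef1b2, Wdr35, Kcnmb4, Kdelr2, Hnrnpab and Cbx3, with Pearson r from 0.997 to 0.992 on log2 values. Psmc5 encodes a proteasome subunit, Bub3 a mitotic checkpoint protein and Kdelr2 a receptor that returns proteins to the endoplasmic reticulum. Bub3 was at 10978, 12915, 12718 and 12733 in pro-B and 6486, 7446, 7603 and 8605 in pre-B, so its step between the stages was far smaller than that of Jchain. The measure follows the split of the 8 libraries into stages, and 1375 of 17511 genes had an r above 0.95. Among the members themselves, r with that mean was 0.920 for Tnfrsf17, 0.815 for Mzb1, 0.714 for Xbp1, 0.591 for Prdm1 and -0.925 for Sdc1.

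Cultured cells gave a contrast without sorting. In Pax5-/- cells Jchain was abundant while the switched genes were nearly silent: with EV, Jchain was at 67983 and 65946 normalized counts, Igha at 50.8 and 69.7, and Ighg1, Ighg2b and Ighg2c were listed at 0 in both libraries. Tables were normalized separately, so levels are compared within a table only. Same-numbered cultured replicates deviated together in every pair of groups, so values with the replicate number as a block are given where they change a call. Pax5 itself was at 2201 and 2103 with EV, 6458 and 6152 with Pax5WT, 8918 and 8963 with Pax5K198Q and 21162 and 16609 with Pax5K198R. Pax5 counts thus differed between the forms, and a count per gene does not separate vector transcript from that of the endogenous locus. Form and amount of Pax5 cannot be told apart. The low-value filter left 6 of the 10 members for testing: Jchain, Igha, Ighg2b, Xbp1, Sdc1 and Mzb1.

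Pax5WT lowered Jchain and Igha. Jchain was at 42233 and 36763 with Pax5WT, below both EV libraries, a log2 change of -0.76 (SE 0.13, limma adjusted p = 0.0238). Igha was at 10.7 and 8.74, a change of -2.50 (SE 0.41, adjusted p = 0.0199). These 2 of 6 members stood beside 3.25% of 13345 genes called. Jchain, but not Igha, lost its call without the low-value filter (limma adjusted p = 0.05205, same log2 change) and with an added threshold of 1.5 on the log2 change. Both calls were lost when any 1 of the 4 libraries was left out, with adjusted p-values of 0.0812 to 0.210 for Jchain and 0.0887 to 0.153 for Igha, while the log2 changes stayed between -0.87 and -0.66 and between -2.73 and -2.28.

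With Pax5K198Q, Jchain was at 49783 and 43961 and Igha at 29.1 and 37.9, also below EV in both libraries. Neither passed the test, at -0.52 (SE 0.13, limma adjusted p = 0.210) and -0.82 (SE 0.41, adjusted p = 0.754), but with the replicate block Jchain did (SE 0.075, adjusted p = 0.0124). limma called 0 of 6 members beside 0.922% of all genes, and 1 of them, Jchain, had an unadjusted p under 0.05, as had 7.86% of all genes. Against Pax5WT directly, where 0.0225% of genes were called, 0 of 6 members passed and 1, Igha, had an unadjusted p under 0.05 (log2 difference 1.68, SE 0.41, adjusted p = 0.605), beside 3.46% of all genes.

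Pax5K198R lowered the same genes, beside 9.92% of genes called against EV. Jchain was at 32232 and 26540.4 (-1.19, SE 0.13, limma adjusted p = 0.00182) and Igha at 12.6 and 8.22 (-2.43, SE 0.41, adjusted p = 0.0093). Ighg2b was at 337 and 205 where EV and Pax5K198Q were listed at 0 and Pax5WT at 2.15 and 0. It passed the low-value filter through the Pax5K198R libraries alone, so these values are a description and no test of it is given. Ighg1 and Ighg2c reached only 4.03 and 1.02 and 2.15 and 0.957 in the same libraries. Without EV replicate 2, Igha lost its call against EV (adjusted p = 0.0778). Against Pax5WT, where 2.87% of genes were called, Jchain did not pass (-0.43, SE 0.13, adjusted p = 0.178) but did with the replicate block (SE 0.075, adjusted p = 0.0134).

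The transcription factor Xbp1 was at 8239 and 8161 with EV and 6714 and 4499 with Pax5K198R (-0.58, SE 0.20, limma adjusted p = 0.133), a difference that passed with the replicate block (SE 0.12, adjusted p = 0.0116). Mzb1 lay between 9899 and 12271 and Sdc1 between 126 and 221 in all 8 libraries, with overlapping groups in each comparison. Prdm1, below the filter, was at 7.34 and 4.58 with EV and at most 1.67 with any Pax5 form. Tnfrsf17 stayed at or below 3.93.

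Of the 15 other plasma cell genes, 3 rose and 3 fell with Pax5K198R against EV. Irf4 rose by 1.56 (SE 0.38, limma adjusted p = 0.0415), Ell2 by 0.97 and Trp53inp1 by 0.68, while Ly6c2 fell by 2.68, Ccr10 by 1.75 and Cd28 by 1.33. B cell genes that plasma cells switch off rose in 4 of 10 tested with Pax5WT, 3 of 10 with Pax5K198Q and 6 of 10 with Pax5K198R, beside 3.25%, 0.922% and 9.92% of all genes called in either direction. Pax5 itself, which the vector supplies, is in this list and in each of these counts. Of the 14 secretory pathway genes, 1 fell and 0 rose with Pax5WT, and 1 fell and 1 rose with Pax5K198R. The 1 that fell was Ern1, the Xbp1-splicing sensor. It fell by 0.85 with Pax5WT (SE 0.13, limma adjusted p = 0.0185) and by 1.47 with Pax5K198R (SE 0.13, adjusted p = 0.000906). These comparisons share the EV libraries.

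Summed markers of other lineages were also lower with Pax5WT and Pax5K198R than with EV, while single markers went both ways. The 8 plasmacytoid dendritic cell markers summed to 14667 and 12176 normalized counts with EV, 7481 and 4984 with Pax5WT, 10759 and 8032 with Pax5K198Q and 7680 (7679.8) and 3079 with Pax5K198R, with Ccr9 or Cox6a2 the most abundant with EV. The 11 T cell markers, led by Trbc1 with EV, summed to 1098 and 1176 with EV, 743 and 812 with Pax5WT, 780.1 and 862 with Pax5K198Q and 373 and 286 with Pax5K198R. Both sums were highest with EV, as Jchain and Igha were. The 9 natural killer cell markers, led by Klrd1 or Nkg7, went from 1259 and 1130 (1129.6) with EV to 335 and 171 with Pax5K198R, and the 10 myeloid markers, led by Itgam, from 1011 and 732 to 655 and 408. With Pax5K198R against EV limma called 4 of 6 tested T cell markers, 2 of 5 natural killer cell markers and 1 of 7 plasmacytoid dendritic cell markers, all lower, and 3 of 4 myeloid markers, 2 of them lower. With Pax5WT against EV the calls were split. Of the T cell markers Tcf7 rose by 2.34 and Trbc1 fell by 1.78. The 1 myeloid call, Lyz2, rose by 1.74, the 1 natural killer call, Nkg7, fell by 1.33, and 0 plasmacytoid markers were called. Ncr1 and Gzmb of the natural killer list, S100a9 and Camp of the myeloid list and Klk1 of the plasmacytoid list were listed at 0 in all 8 libraries, and Cd3e of the T cell list in 7 of 8. The part of these cells or programmes in the falls of Jchain and Igha was not tested.

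**Figure D5:**
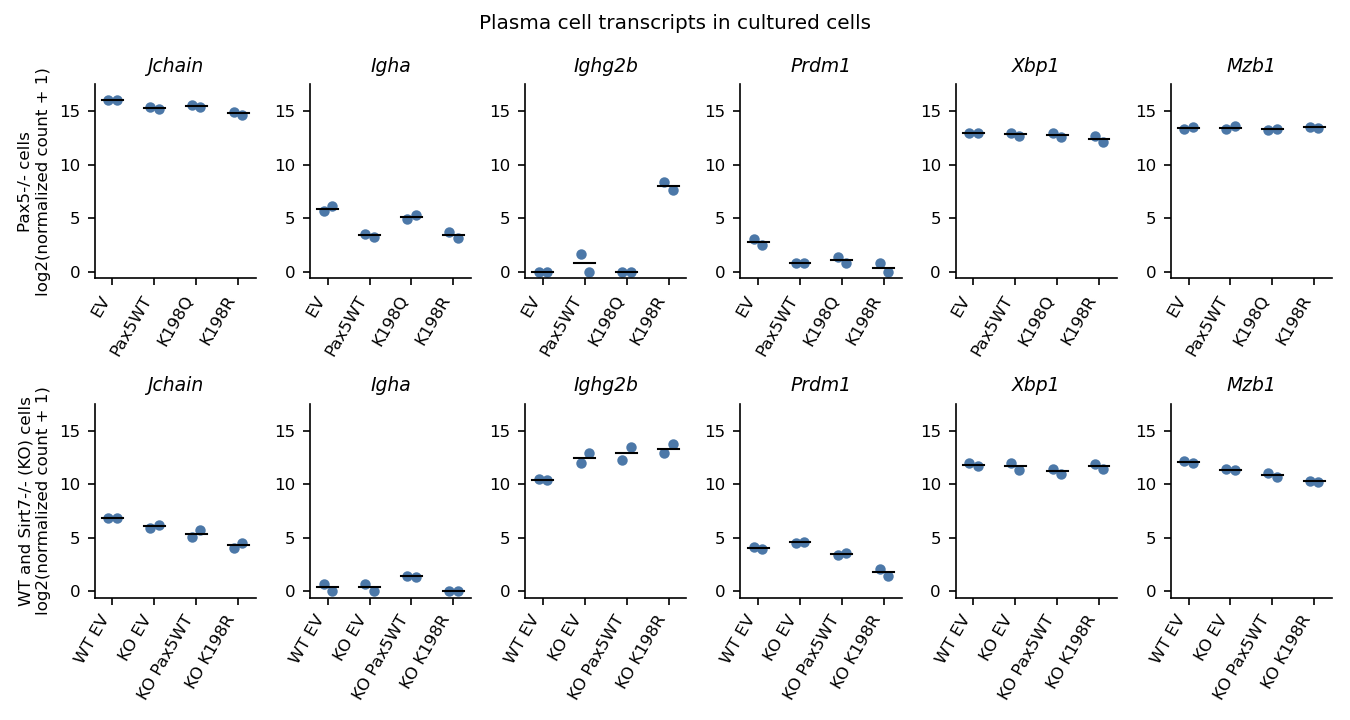
Levels of 6 members, as log2(normalized count + 1), in Pax5-/- cells (upper row) and in cultured wild-type (WT) and Sirt7-/- (KO) cells (lower row), with 1 point per library and a line at the group mean of 2. Jchain steps down from EV to Pax5K198R in both rows, and Ighg2b stands clear of 0 only with Pax5K198R in the upper row.

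In the remaining table, of cultured wild-type and Sirt7-/- cells, Jchain was low and Ighg2b high. Jchain was at 110.03 and 110.1 in wild-type EV cells, 60.6 and 69.4 in Sirt7-/- EV, 31.8 and 49.9 with Pax5WT and 15.8 and 21.4 with Pax5K198R. Ighg2b was at 1424 and 1290.1, 3919 and 7516, 4840.4 and 11378, and 7785 and 13344 in the same order. Igha, Ighg1, Ighg2c and Tnfrsf17 were at most 4.08 in any library. Ighg2b was thus the one switched member above that level, while the unswitched Ighm was at 77478 to 92417 throughout. The filter again left 6 members, here with Prdm1 in place of Igha.

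Between Sirt7-/- and wild-type EV cells limma called 0 of 6 members, beside 0.557% of 13651 genes and 2 (Ighg2b and Mzb1) at an unadjusted p under 0.05, beside 9.68% of all genes. Mzb1 was at 2690 (2689.8) and 2548 against 4694 and 4059 (-0.74, SE 0.15, adjusted p = 0.106) and Ighg2b was higher by 2.001 (SE 0.45, adjusted p = 0.139). Jchain was lower in both Sirt7-/- libraries (-0.75, SE 0.34, adjusted p = 0.554). With the replicate block Ighg2b (adjusted p = 0.0154) and Mzb1 (adjusted p = 0.0161) passed limma's test, and Jchain did not. None of these 3 genes overlapped between the genotypes, which for 2 libraries against 2 is an exact permutation p of 0.33. The share of all genes without overlap was not counted. Immature and mature B cell markers, led by Ighd, summed to 3027 and 2963 in wild-type EV and to 6051 and 6678 in Sirt7-/- EV, with 1 of 11 tested called higher (Tnfrsf13c) and 5 at an unadjusted p under 0.05. Natural killer cell markers summed to 116 and 61.0 in wild-type EV and to 226 and 124 in Sirt7-/- EV, with 0 of 3 tested called. T cell marker sums overlapped, at 1521 and 886 against 2015 and 1240. Of these, Bcl11b was at 0 in both Sirt7-/- EV libraries and detected in both wild-type EV ones. The part of all these markers in the genotype differences was not tested.

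Pax5K198R lowered 3 members in Sirt7-/- cells. Mzb1 was at 1284 and 1194 (-1.08, SE 0.15, limma adjusted p = 0.0108), Prdm1 at 3.26 and 1.71 where EV had 21.7 and 23.2 (-2.79, SE 0.49, adjusted p = 0.0222), and Jchain fell by 1.76 (SE 0.34, adjusted p = 0.031). The 3 of 6 stood beside 4.83% of genes. Jchain and Prdm1 lost their calls when any 1 of the 4 libraries was left out, and Mzb1 in all but the case without Pax5K198R replicate 1, with adjusted p-values of 0.0474 to 0.154 over the 3 genes. The log2 changes stayed between -1.97 and -1.56 for Jchain, -3.11 and -2.46 for Prdm1 and -1.13 and -1.03 for Mzb1. Over all 8 settings tried, these left-out libraries among them, the call was lost in 6 for Jchain, 5 for Prdm1 and 3 for Mzb1. At its low counts Prdm1 also depended on the pseudocount, with a log2 change of -1.88 (limma adjusted p = 0.02275) at a pseudocount of 5. With Pax5WT limma called 0 of 6 members, beside 0.0366% of genes, and 1, Mzb1, had an unadjusted p under 0.05 (-0.53, SE 0.15, adjusted p = 0.287), as had 9.91% of all genes. With the replicate block Mzb1 passed (SE 0.10, adjusted p = 0.0491). The 2 comparisons share the Sirt7-/- EV libraries. The immature and mature B cell markers, at 6051 and 6678 with EV, summed to 10381 and 19680.2 with Pax5WT and 18388 and 46286 with Pax5K198R, and 5 of 11 tested rose and 1 fell with Pax5K198R. Of the T cell and myeloid markers Tcf7 fell by 2.09 and Lyz2 by 2.36. Stroma markers, led by Cxcl12, summed to 3713 and 5691 with EV, 6287 and 13557 with Pax5WT and 4839 and 10243 with Pax5K198R. All 6 tested were above EV with each form, and limma called 0. Their part in the result was not tested.

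ChIP-seq of the 3 Pax5 forms in Pax5-/- cells showed where Pax5 lay near these genes. A peak within 10 kb of the start was listed for 4 and 5 of the 10 members in the Pax5WT replicates, beside 20.1% and 22.1% of 55413 annotated genes, for 2 and 2 with Pax5K198Q, beside 8.78% and 9.18%, and for 3 and 3 with Pax5K198R, beside 22.6% and 24.3%. Mzb1 had one inside the gene, 800 to 835 bases from its start, in all 6 lists, at 10.3-fold to 22.9-fold over input. Xbp1 had a peak 8.15 kb upstream in 4 lists, those of Pax5WT and Pax5K198R. Tnfrsf17 had one in both Pax5WT lists and Sdc1 in 1 of them. Prdm1 had none within 50 kb.

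Jchain had no peak within 10 kb. The nearest upstream ones, at 26.6 kb and 37.1 kb, lay at the starts of Utp3 and Rufy3. The Jchain promoter is shown because Jchain fell with Pax5WT and Pax5K198R although no peak lay there. The bases before its start, from RefSeq on GRCm38.p6 at chr5:88527898-88528147 (minus strand), held no match in either direction to the letters GCGTGAC, a core of the known Pax5 motif, which 1.88% of 27025 RefSeq promoters of 250 bases held. No bases are in capitals because no match was found, and no match says only that these letters are not in this window.
Jchain promoter: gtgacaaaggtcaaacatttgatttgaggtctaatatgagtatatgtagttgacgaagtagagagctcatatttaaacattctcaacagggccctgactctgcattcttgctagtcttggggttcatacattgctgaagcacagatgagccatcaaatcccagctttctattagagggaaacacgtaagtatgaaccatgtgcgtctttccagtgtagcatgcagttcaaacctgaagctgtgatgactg

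All 6 lists shared a peak between Ighg1 and Ighg2b, 9259 to 9309 bases downstream of the Ighg1 start and 13.3 kb upstream of the Ighg2b start, at 5.82-fold to 18.4-fold over input. It is intergenic, and it is shown because Ighg2b was the most abundant switched gene in the Pax5K198R libraries. Its 300 bases around the summit at chr12:113321078-113321377 of GRCm38.p6 (plus strand) held no GCGTGAC in either direction, which 5.64% to 9.1% of all peaks at 300 bases did. Fold over input was 9.44 and 14.2 with Pax5WT, 9.22 and 5.82 with Pax5K198Q and 17.4 and 18.4 with Pax5K198R, highest in the Pax5K198R lists. These are the peak caller's values per replicate and were not tested. The study reports stronger Pax5K198R occupancy over Pax5 targets in general. The fold at this peak was not compared with that at the other shared peaks.
Peak between Ighg1 and Ighg2b: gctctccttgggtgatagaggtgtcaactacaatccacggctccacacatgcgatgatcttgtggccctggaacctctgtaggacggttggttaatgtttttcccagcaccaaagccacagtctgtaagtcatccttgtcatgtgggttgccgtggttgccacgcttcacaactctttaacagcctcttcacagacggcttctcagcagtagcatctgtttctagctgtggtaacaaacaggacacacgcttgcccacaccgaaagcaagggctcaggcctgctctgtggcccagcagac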

How the data were processed

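The series held 36 samples, of which 24 RNA-seq libraries in 3 tables and 6 peak lists were used; the 6 input libraries were not used here. The authors deposited normalized counts (unit signal), made per the study's methods and the submitters' processing notes with Salmon on mm10, Tximeta and DESeq2's median of ratios, each table normalized separately. Peaks were called per replicate with Bowtie2 and MACS2 over input, and the deposited lists give a fold over input and a −log10 q-value. Versions of Salmon, Tximeta, DESeq2, Bowtie2 and MACS2 are not given in the sources used here.

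From these, limma 3.58.1 (trend) in R 4.3.3 was run on log2(normalized count + 1) for genes with at least 10 normalized counts in 2 libraries, with the 4 groups of a table in one fit, Benjamini-Hochberg adjustment over all genes and a threshold of 0.05. Of the values of the sorted cells, 100% gave whole reads within 0.05 of a read, and edgeR 4.0.16 and DESeq2 1.42.0 were run on those reads as alternatives. Depth of the cultured libraries is unknown. Fits were tested on simulated data. Pro-B and pre-B libraries of 1 mouse pair by the animal number in the labels, with a correlation of deviations of 0.08 in wild-type and 0.156 in Sirt7-/- mice. Cultured replicates were taken to pair by number, since RNA-seq replicates were made on separate days by the study's methods and every pair of groups correlated (0.264 to 0.383 in Pax5-/- cells and 0.156 to 0.428 in the other cultured table). The members and the 13 gene lists besides them were chosen with earlier results of these data known. Named genes were all members, up to 3 tested genes per list with the largest mean stage difference, defining markers listed at 0, the 10 tested genes outside the lists most alike to the mean of Jchain, Igha, Ighg1, Ighg2b and Ighg2c, and Sirt7 and Pax5 as checks; other genes named were chosen after their values were seen. Sequences and positions are from RefSeq and GENCODE on GRCm38. Some items of the gene lists and labels are not reported here.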

Additional observations from a re-analysis of the deposited data

Results flagged for a closer look

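Jchain pointed in opposite directions in sorted pre-B and in cultured Sirt7-/- cells. In sorted pre-B cells both Sirt7-/- libraries were above both wild-type libraries, a log2 difference of 1.003, and in cultured EV cells both were below, by -0.75. In sorted pro-B cells the genotypes overlapped (0.11, SE 0.44). Neither the pre-B nor the cultured difference passed the test, the difference between them was not tested, and the tables were normalized separately.

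Trim26, chosen after its values were seen, was the 1 gene with a stage-by-genotype interaction (log2 difference 1.93, SE 0.12, adjusted p = 0.0173 by limma). It was not called with the mouse as a block, without the pro-B library of mouse 10 or without that of mouse 11. It was at 4806 and 4751 normalized counts in wild-type and 1583 and 1561 in Sirt7-/- pro-B, and at 3723 and 3531 against 4677 and 4434 in pre-B.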

How the results depend on the processing

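With 2 libraries a group, counts of calls moved with the settings. Direction was followed over the settings only for members called in cultured cells, and none of these reversed.

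For the loss of SIRT7 in pro-B cells 11 genes were called, 0 with only those groups in the fit and 128 by DESeq2. In pre-B cells, 15 were called, 7 with the replicate number as a block, 0 with only those groups, 728 by DESeq2 and 5 by edgeR. The interaction went from 1 gene to 0 with the mouse as a block and 104 by DESeq2. An added fold threshold of 1.5 on the log2 scale left 2451 stage calls in wild-type and 1809 in Sirt7-/- mice, and 4 plasma cell list genes in each.

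In Pax5-/- cells, Pax5WT against EV gave 260 calls without the low-value filter (1 member), 1343 with the replicate block and 203 with the fold threshold (1 member). Pax5K198Q against EV gave 73 without the filter and 363 with the block (1 member). Pax5K198R against EV gave 2834 with the block, 673 with only those groups and 612 with the fold threshold. Pax5K198Q against Pax5WT gave 29 with the block and 7 with only those groups. Pax5K198R against Pax5WT gave 231 without the filter, 1004 with the block (2 members), 40 with only those groups and 213 with the fold threshold.

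In cultured wild-type and Sirt7-/- cells, Sirt7-/- against wild-type EV gave 44 calls without the filter, 288 with the block (2 members) and 0 with only those groups. Pax5WT against EV gave 268 with the block (1 member) and 0 with only those groups. Pax5K198R against EV gave 423 without the filter, 1588 with the block and 1 member with only those groups. In the list of Pax5WT replicate 2, 5 members had a peak within 10 kb, beside 22.1% of all genes, 9 within 50 kb, beside 41.0%, and 3 at a −log10 q of at least 5, beside 19.1%.

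Leaving out 1 library gave 0 to 15 calls between genotypes in pro-B, 14 to 177 in pre-B, 4698 to 5244 between stages in wild-type (6 to 9 in the plasma cell list), 3705 to 5836 in Sirt7-/- mice (6 to 10 in the list) and 0 to 12 for the interaction. It gave 89 to 166 for Pax5WT against EV in Pax5-/- cells (0 members), 31 to 67 for Pax5K198Q, 561 to 1484 for Pax5K198R (2 to 4 members), 0 to 1 for Pax5K198Q against Pax5WT and 20 to 576 for Pax5K198R against it. In cultured wild-type and Sirt7-/- cells it gave 3 to 60 between genotypes, 1 to 5 for Pax5WT and 63 to 228 for Pax5K198R (0 to 1 members).

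Between sorted genotypes the replicate numbers are only shared numbers, with a correlation of deviations of 0.01 to 0.055. The block changed no call on a member beyond those given with the results. Counts of members in Pax5K198R comparisons of Pax5-/- cells include Ighg2b, which passed the filter through Pax5K198R alone. A fit of the interaction to only the groups compared is the same fit and was not run. Scaling without immunoglobulin moved the median stage difference from -0.04 to -0.12 in wild-type and from -0.04 to -0.14 in Sirt7-/- mice, and the stage calls to 2687 higher and 4396 lower and to 2401 higher and 4030 lower, from 3200 and 3890 and from 2913 and 3380.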

Other observations

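Variable genes were summed by family. The 162 Igkv genes summed to 36067, 100355, 79822 and 83595 normalized counts in pro-B of mice 10, 18, 11 and 8 and to 35046, 37719, 42853 and 37860 in pre-B. The 185 Ighv genes summed to 38870, 81919, 56476 and 67247 in pro-B and 41704, 42458, 41752 and 40697 in pre-B. In mouse 10 the stages were close for both families, and in the other 3 mice pro-B was higher. No single gene held more than 6.11% of the Ighv sum or 8.83% of the Igkv sum in any sorted library. The 3 Iglv genes went the other way, at 1707, 4980, 1705 and 1808 in pro-B and 11214, 6632, 5682 and 4205 in pre-B, and Iglv1 held 52.6% to 81.6% of that sum.

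Igkc, the kappa constant gene whose locus rearranges in pre-B cells, was at 234972, 550267, 439264 and 387073 in pro-B and 215431, 240298, 269168 and 246367 in pre-B.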
